A study of Homo sapiens with 10 samples.

Results

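The replication fork machinery was followed in human BJ-hTERT fibroblasts through 19 h of p53 activation. The genes were a list of 35 symbols fixed by function, namely the replicative DNA polymerases, the sliding clamp and its loader, the single-strand binding protein, the GINS and CDC45 helicase partners, the enzymes that finish Okazaki fragments, the fork protection factors and a topoisomerase. Rows with these symbols were found for 31 of the 35 genes among the 11258 transcripts that the RNA-Seq and Ribo-Seq tables share, and the rule uses symbols alone. The other 4 genes, PRIM2, POLE, TOP2A and DNA2, were not analysed here.

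For each assay 5 libraries were compared, 1 from untreated cells and 1 each at 2, 4, 6 and 19 h of nutlin-3a, a small molecule that keeps MDM2 from binding p53. All 10 libraries came from the same telomerase-immortalized primary foreskin fibroblasts, RNA-Seq was made from poly(A) RNA, and Ribo-Seq sequenced the mRNA fragments that ribosomes protect. There was 1 library per group, so the differences have no replicate check, no p-value was computed, and the errors given are counting errors of the sequenced reads alone. Libraries held 23845561 to 27554292 reads for RNA-Seq and 7744899 to 14460728 reads for Ribo-Seq, as recovered from the spacing of the deposited values, and the 19 h Ribo-Seq library was the shallowest. All 10 fibroblast markers looked for were present, CDH1, KRT19, VWF and PTPRC, which mark epithelial, endothelial and blood cells, lay at 0.246 FPKM or less in every RNA-Seq library. Of the other blood cell markers with a value, LYZ lay at 0.753 to 1.069 FPKM and CD68, a macrophage marker, was present at 62.9 FPKM in the control. The p53 target CDKN1A, a cell cycle inhibitor, went from 68.6 to 1316 FPKM in RNA-Seq between the control and 19 h, and MDM2 went from 14.9 to 259 FPKM.

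At a replication fork the helicase formed by the MCM proteins with CDC45 and GINS unwinds DNA, and RPA coats the single strands it exposes. Polymerase alpha with primase lays down primers, clamp loaders place the ring of PCNA around DNA, and polymerases epsilon and delta extend the leading and the lagging strand. Many genes of this machinery are transcribed mainly as cells enter S phase, under control of E2F factors, and p53 is known to repress much of that program through the cell cycle inhibitor p21.

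Levels are given in FPKM, read numbers per unit of transcript length and of library depth, so that they compare between libraries. Ribo-Seq levels compare less well between genes, since they appear to be scaled to the whole transcript and not to its coding part. Changes are log2 ratios to the untreated library of the same assay, after values below 1 FPKM had been raised to that floor. A change from a value above the floor to one below it is therefore a bound, and the fold on the reads themselves is given beside it with a 95% counting interval. Ribosome density is the Ribo-Seq FPKM, and translational efficiency (TE) is the log2 ratio of ribosome density to RNA. Of the 31 genes, 30 reached 5 FPKM in some RNA-Seq library and in some Ribo-Seq library, as did 7015 genes in all, here called tested genes, and WDHD1 missed that level in Ribo-Seq. Genes that fell passed on their level in the control or at early times. These were bulk cultures, in which fewer cells in S phase and less RNA per cell cannot be told apart.

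As a group the fork genes were little changed at 2 h and lower at 4 h, most were at least 2-fold lower at 6 h, and they were lower still at 19 h, in RNA and in ribosome density alike. In log2 units the 30 tested members had median RNA changes of -0.14, -0.63, -2.02 and -2.74 at 2, 4, 6 and 19 h, the last being 15% of the control level. Over all tested genes the median change was -0.05, -0.07, -0.0024 and -0.07 at the same times. No member was lower by 2-fold or more in RNA at 2 h, where 0.0143% of all tested genes were. At 4 h 6 of 30 members were past 2-fold, against 0.684% of tested genes, and at 6 h 20 members were, against 5.39%. At 19 h 24 of 30 members (80%) were at least 2-fold lower in RNA, against 7.1% of all tested genes, and none was 2-fold higher, against 2.49%. A cut-off set by the local spread of changes over all genes, in place of 2-fold, called 15 of the 30 lower in RNA at 19 h, against 4.5% of all tested genes, and 16 lower in density, against 3.55%.

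Ribosome density of these genes followed the same course. Its median change was -0.20, -0.41, -2.17 and -2.72 at 2, 4, 6 and 19 h, beside 0.02, 0.10, -0.02 and -0.19 over all tested genes. A single member, the clamp loader subunit RFC4, was 2-fold lower in density at 2 h, where 0.128% of tested genes were. The count was 4 of 30 members at 4 h (0.527% of tested genes), 24 at 6 h (8.04%) and 25 at 19 h (14.9%). The polymerase delta subunit POLD4 was at least 2-fold higher in density at 19 h, where 6.22% of tested genes were. At 6 h 20 members were at least 2-fold lower in both assays, and the share of all tested genes lower in both is not given here.

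**Figure D1:**
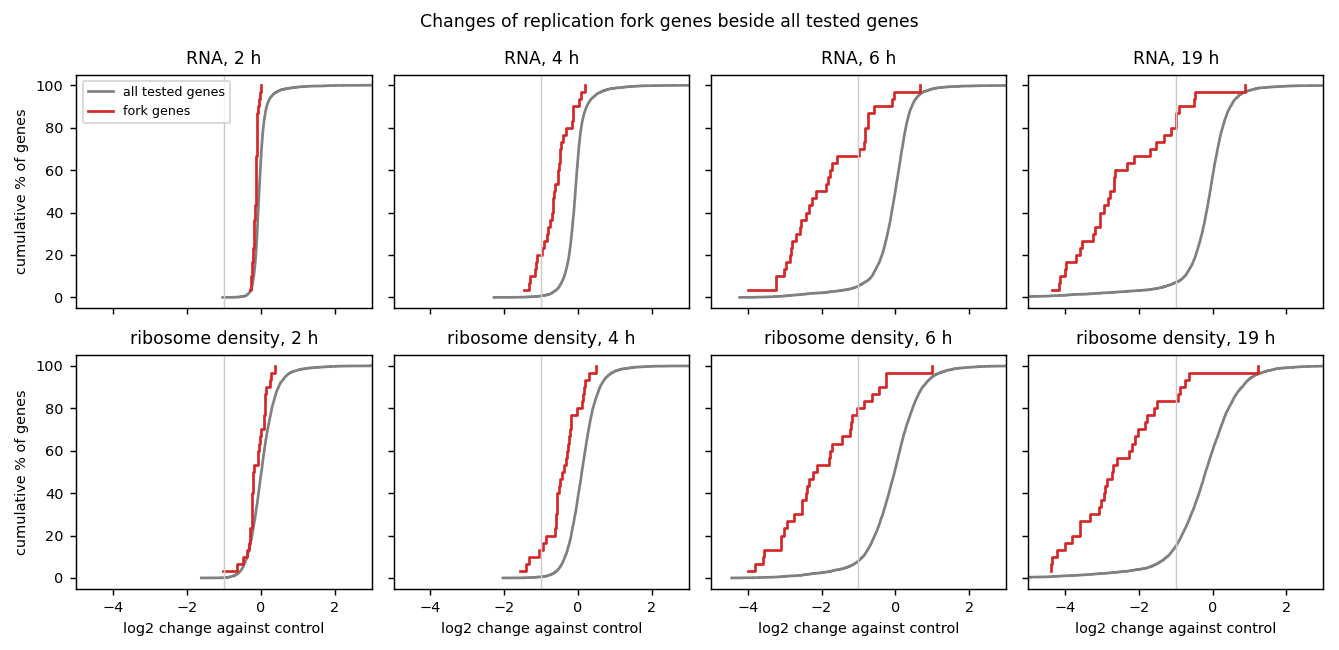
Cumulative percent of genes (vertical axis) at or below each log2 change against control (horizontal axis) for RNA (top) and ribosome density (bottom) at 2, 4, 6 and 19 h, with the 30 tested fork genes in red and all 7015 tested genes in grey. The grey vertical line marks a 2-fold decrease, which 24 of 30 fork genes had passed in RNA at 19 h.

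Of the steps between neighbouring libraries after 2 h, that from 4 to 6 h had the largest median decrease in both assays. From 2 to 4 h the median step of the members was -0.43 in RNA and -0.35 in density. From 4 to 6 h it was -1.26 in RNA and -1.79 in density, with 19 of 30 members falling by at least 2-fold in RNA within those 2 h, as did 4.23% of all tested genes. Over all tested genes the median step from 4 to 6 h was 0.05 in RNA and -0.17 in density. Between 6 and 19 h the median step of the members was -0.50 in RNA and -0.40 in density. The floor limits this last step, because RNA of 9 of the 31 genes and density of 12 lay under 1 FPKM at 19 h, against 3 and 7 at 6 h.

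**Figure D2:**
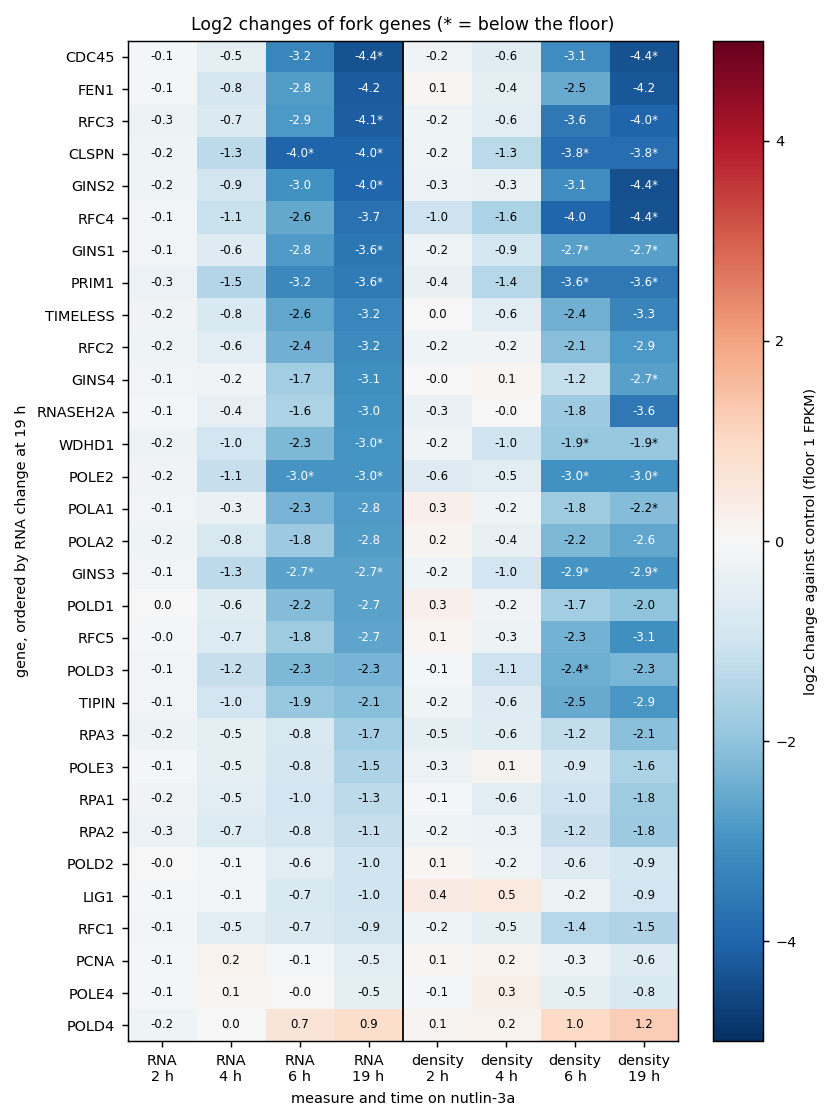
Log2 change of each of the 31 fork genes (rows, ordered by RNA change at 19 h) in RNA (left 4 columns) and ribosome density (right 4 columns) at 2, 4, 6 and 19 h against control, with values floored at 1 FPKM, and an asterisk marking values below that floor. Blue deepens from 4 to 6 h in most rows, and the bottom row, POLD4, turned red, at 0.87 in RNA and 1.23 in density at 19 h.

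Promoter windows are shown for members at the ends of the range, since E2F, CCAAT and CHR words are known from promoters of cell cycle genes. RefSeq windows on GRCh38.p14 were found for 27 of the 31 genes (none for POLD3, RPA2, RPA3 and GINS4), and the 250 bases before each start site are shown and searched. CDC45 and FEN1 had the lowest RNA changes at 19 h once values were floored, and PCNA and POLD4 were among the 3 highest. On reads alone FEN1 was not at the end of the range, since CLSPN, CDC45, POLE2, GINS2, PRIM1, GINS1 and RFC3 had larger RNA decreases. Capitals mark the words found, CCAAT or its reverse ATTGG and, in PCNA alone of these 4 genes, the E2F word TTTCCCGC read on the reverse strand. CDC45 lies at chr22:19479670-19479919 on the plus strand, FEN1 at chr11:61792661-61792910 on the plus strand, PCNA at chr20:5126623-5126872 on the minus strand and POLD4 at chr11:67353597-67353846 on the minus strand, each written 5′ to 3′ on the strand of its gene and ending at the base before the start site.
CDC45: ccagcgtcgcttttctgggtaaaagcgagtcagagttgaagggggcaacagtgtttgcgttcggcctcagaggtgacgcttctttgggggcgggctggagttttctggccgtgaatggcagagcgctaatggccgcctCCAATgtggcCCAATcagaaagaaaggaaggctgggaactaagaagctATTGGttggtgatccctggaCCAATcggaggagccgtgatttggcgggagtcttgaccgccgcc
FEN1: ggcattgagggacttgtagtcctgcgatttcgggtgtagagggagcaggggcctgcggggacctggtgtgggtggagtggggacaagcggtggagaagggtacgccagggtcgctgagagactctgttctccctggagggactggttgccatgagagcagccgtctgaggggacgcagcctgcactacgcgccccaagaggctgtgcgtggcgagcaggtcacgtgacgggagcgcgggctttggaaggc
PCNA: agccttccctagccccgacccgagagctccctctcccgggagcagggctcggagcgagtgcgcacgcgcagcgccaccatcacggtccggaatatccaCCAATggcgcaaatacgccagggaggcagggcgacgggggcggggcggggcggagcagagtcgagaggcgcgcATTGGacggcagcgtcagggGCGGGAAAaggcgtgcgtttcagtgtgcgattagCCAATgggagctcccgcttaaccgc
POLD4: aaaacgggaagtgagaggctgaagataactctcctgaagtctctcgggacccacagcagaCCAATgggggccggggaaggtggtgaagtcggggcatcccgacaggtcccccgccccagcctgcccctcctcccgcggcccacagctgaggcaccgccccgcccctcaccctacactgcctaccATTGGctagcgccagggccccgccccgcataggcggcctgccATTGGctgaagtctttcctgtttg

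The 4 windows were picked by the RNA change, and a relation between the words and that change was not tested. Exact words alone were counted, and the CDC45 window holds tttggcgg, which differs from the E2F word TTTGGCGC in its last base. CDC45 held 4 CCAAT words, POLD4 held 3 and PCNA held 3 beside its E2F word, whereas FEN1 held none of the words searched. Searched on both strands, an E2F word (TTTCCCGC, TTTGGCGC, TTTCGCGC or TTTGCCGC) was present in 8 of 27 members (29.6%), namely POLA1, POLA2, POLE4, PCNA, RFC3, GINS2, LIG1 and TIPIN. It was present in 3.40% of the 27305 genes with a window and in 5.85% of the 5314 tested genes with one. CCAAT was present in 16 members (59.3%), against 37.0% of all genes and 42% of tested genes. The CHR words TTTGAA and TTCGAA, which recruit the DREAM repressor complex at many cell cycle genes, were present in 1 member, POLE3 (3.70%), against 17.2% of all genes and 12.8% of tested genes. The half-site that p53 binds, a search added after the data had been seen, was present in PCNA, RFC3 and TIPIN (11.1%), against 6.80% of all genes and 6.25% of tested genes. In PCNA the half-site lies in another window of that gene, not in the one shown. In the first-listed window of each member, E2F, CHR and CCAAT words did not overlap one another, and the half-site was not part of that check.

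Members with an E2F word had a median RNA change of -2.47 at 19 h (n = 8, from -4.14 in RFC3 to -0.47 in POLE4), and members without one had -3.0 (n = 19). Members with CCAAT had -2.74 (n = 16) and members without it -2.95 (n = 11). The ranges overlapped for each word. These are matches of letters in a short window, not measured binding.

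**Figure D3:**
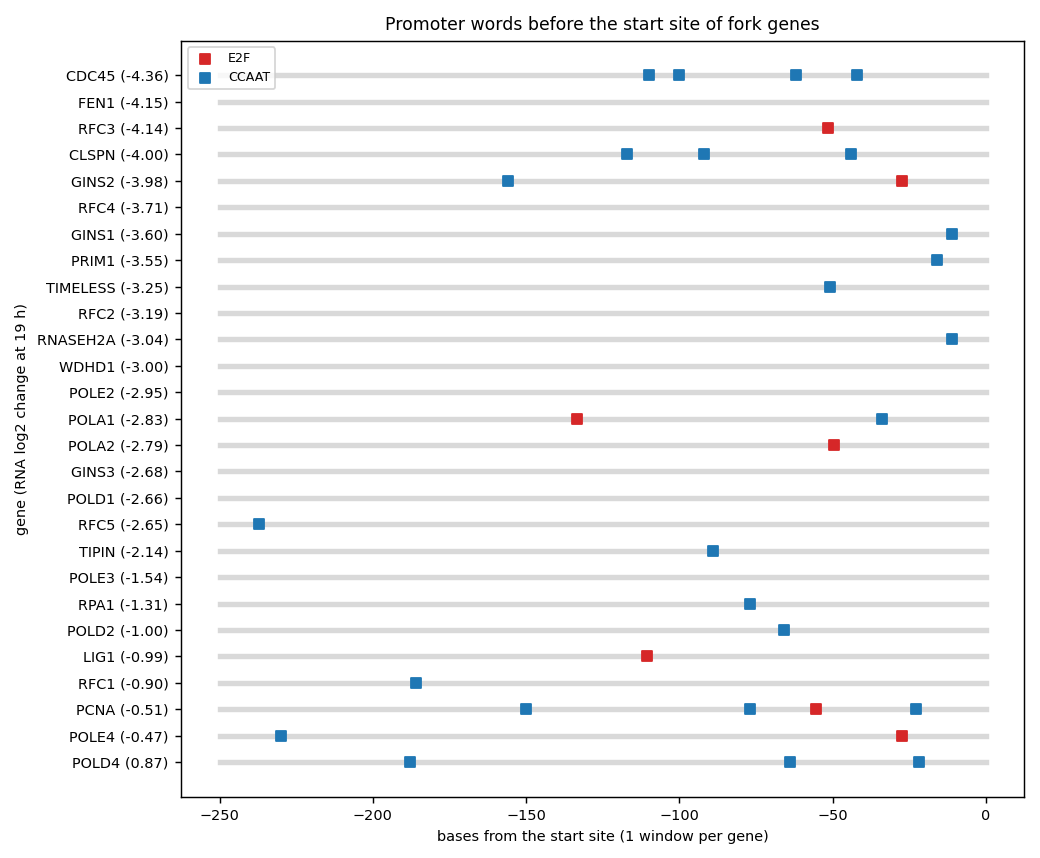
Position of E2F words (red) and CCAAT words (blue) in the 250 bases before the start site (horizontal axis, bases from the start site) of the 27 fork genes with a RefSeq window, 1 window per gene, ordered from the lowest to the highest RNA change at 19 h. E2F words lie in rows from RFC3 near the top to POLE4 near the bottom, while the E2F words of TIPIN are in another window of that gene and are not drawn.

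CDC45 and the 4 GINS subunits, which join the MCM ring to form the active helicase, were the group with the lowest median RNA change at 19 h among the 8 groups. All 5 were at least 2-fold lower in RNA and in density at 6 h and at 19 h, and the group's median RNA change at 19 h was -3.60. CDC45 stood at 20.6 FPKM in RNA in the control and at 19.3, 14.6, 2.17 and 0.574 FPKM at 2, 4, 6 and 19 h. Its ribosome density was 20.4, 17.9, 13.5, 2.37 and 0.386 FPKM in the same order. Most of the drop came after 4 h, and at 19 h CDC45 was 35.9-fold lower in RNA (25.0 to 53.4, on 985 and 30 reads) and 52.9-fold lower in density (24.1 to 145, on 482 and 6 reads).

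GINS2 went from 15.8 FPKM in RNA through 13.5, 8.33 and 1.94 to 0.517, a 30.6-fold decrease on reads (21.9 to 43.9). Ribosome density of GINS2 was 21.0, 17.2, 16.7, 2.45 and 0.676 FPKM. GINS2 RNA was already lower at 4 h (-0.92 ± 0.08, counting SE) when its density had moved less (-0.33 ± 0.08). This is a TE change of 0.59, beside a median of 0.18 over all tested genes at 4 h. GINS1 RNA ended 22.3-fold lower (16.6 to 30.7) and GINS3 14.8-fold lower (10.0 to 22.8). GINS3 was among the early genes, at 6.42, 5.81 and 2.57 FPKM in the control, at 2 h and at 4 h, while GINS4 was late, at 12.4, 11.4, 11.1, 3.77 and 1.5 FPKM over the 5 libraries. At 4 h the RNA change of GINS3 was -1.32 ± 0.14 and that of GINS4 was -0.16 ± 0.06, although their proteins sit in a single complex.

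Polymerase alpha with primase makes the primers from which every Okazaki fragment starts. Its 3 measured subunits were all at least 2-fold lower at 6 h and at 19 h in both assays. PRIM1, the catalytic primase subunit, had RNA levels of 11.7, 9.66, 4.25, 1.25 and 0.416 FPKM and was the member with the largest RNA decrease at 4 h (-1.46 ± 0.14). Its ribosome density was 12, 9.26, 4.5, 0.471 and 0.088 FPKM. At 19 h PRIM1 RNA was 28.2-fold lower than in the control (17.1 to 49.7), and its density rested on 1 read against 208, a ratio of 136 with a counting interval of 24.3 to 5435. The polymerase subunits POLA1 and POLA2 reached RNA changes at 19 h that did not differ beyond counting error, -2.83 ± 0.10 and -2.79 ± 0.10, from 11.5 and 17.4 FPKM. POLA1 had lost less at 4 h (-0.34 ± 0.06) than POLA2 (-0.81 ± 0.06).

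Polymerase delta, which extends the lagging strand, did not move as a unit. The catalytic subunit POLD1 went from 20.3 FPKM in RNA to 20.6, 13.3, 4.56 and 3.21, and its density from 15.2 to 18.4, 13.4, 4.61 and 3.78 FPKM. At 19 h POLD1 was 6.34-fold lower in RNA (5.59 to 7.21) and 4.03-fold lower in density (3.26 to 5.02). The small accessory subunit POLD4 had 41.5, 36.1, 42.1, 65.5 and 75.9 FPKM in RNA and 43.8, 47.8, 49.6, 87.4 and 103 FPKM in density. POLD4 was the member with higher values at 6 and 19 h, 1.83-fold in RNA (1.69 to 1.98) and 2.35-fold in density (2.09 to 2.64) at 19 h. The ratio of POLD4 to POLD1 in FPKM was 2.04 in the control RNA library, 3.17 at 4 h, 14.4 at 6 h and 23.6 at 19 h, and in Ribo-Seq it went from 2.87 to 27.2.

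POLD2 and POLD3, the remaining subunits of this polymerase, lay between those ends. POLD3 was among the genes 2-fold lower by 4 h (-1.16 ± 0.08 in RNA and -1.05 ± 0.15 in density), and its RNA then stood at 2.65 FPKM at 6 h and 2.56 FPKM at 19 h. POLD3 density was 0.364 FPKM at 6 h and 1.11 FPKM at 19 h, on 14 and 33 reads, against 5.36 FPKM in the control. POLD2 RNA was 50.2, 49.8, 45.5, 33.6 and 25.1 FPKM, and its change at 19 h of -0.997 fell just short of the 2-fold threshold. LIG1 at -0.990 lay just outside as well, and RPA2 at -1.14 was the nearest member inside it.

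Polymerase epsilon, which extends the leading strand, showed the same split among its 3 measured accessory subunits. POLE2, which binds the catalytic subunit directly, had RNA levels of 7.75, 6.83, 3.5, 0.45 and 0.216 FPKM and densities of 8.09, 5.18, 5.68, 0.950 and 0.364 FPKM. At 19 h POLE2 was 35.9-fold lower in RNA on 10 reads against 328 (19.2 to 75.4). POLE3 and POLE4 form a histone-fold pair within the complex. POLE4 had 38.4, 35.8, 40.7, 37.5 and 27.8 FPKM in RNA and 52.1, 49.8, 64.3, 38.1 and 30.7 FPKM in density, and its RNA was 1.38-fold lower at 19 h (1.27 to 1.51). POLE3 RNA was 2.91-fold lower at 19 h (2.68 to 3.16), from 39.9 to 13.7 FPKM, so the pair differed in RNA beyond counting error. The ratio of POLE4 to POLE2 in RNA was 4.96 in the control and 129 at 19 h.

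After flooring, the clamp PCNA and the 5 clamp loader subunits had the widest spread of RNA changes at 19 h of any group, from -4.14 in RFC3 to -0.51 in PCNA. On unfloored values RFC3 was at -4.38, and polymerase epsilon spread wider, from -5.16 in POLE2 to -0.47 in POLE4. PCNA, the ring that tethers polymerases to DNA and a known p53 target, was the most abundant member in all 10 libraries, at 135, 127, 154, 128 and 94.8 FPKM in RNA and 187, 197, 209, 156 and 120 FPKM in density. PCNA RNA was 0.19 ± 0.03 (log2) higher at 4 h, when most members were lower, and 1.43-fold lower at 19 h (1.37 to 1.49). Processed pseudogene copies of PCNA exist in the genome but were not part of the transcript set used for alignment, so reads from such copies would be counted with the gene. RFC3, a small loader subunit, had RNA levels of 17.6, 14.7, 10.7, 2.42 and 0.847 FPKM and densities of 16.0, 13.8, 10.8, 1.36 and 0.591 FPKM. RFC3 RNA was 20.8-fold lower at 19 h (15.8 to 28.0), and the ratio of PCNA to RFC3 went from 7.68 in the control to 112 at 19 h in RNA and from 11.6 to 202 in Ribo-Seq.

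RFC1, the large loader subunit, had RNA at 19.5, 17.7, 13.5, 11.8 and 10.4 FPKM and density at 5.60, 4.87, 4.02, 2.07 and 1.96 FPKM. RFC1 was 1.87-fold lower in RNA at 19 h (1.74 to 2.00) and 2.86-fold lower in density (2.22 to 3.74). RFC2, RFC4 and RFC5 had RNA changes of -3.19 ± 0.13, -3.71 ± 0.21 and -2.65 ± 0.14 at 19 h. The large subunit had the smallest RNA change of the 5 loader proteins, 4 of which were past 2-fold in RNA and all 5 in density.

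RFC4 was the single member past 2-fold in ribosome density at 2 h. Its density was 20.6 FPKM in the control and 10.2, 6.92, 1.30 and 0.268 FPKM at 2, 4, 6 and 19 h, while its RNA was 18.1, 16.5, 8.42, 3.06 and 1.38 FPKM. At 2 h the density change was -1.02 ± 0.13 on 351 and 175 reads, beside an RNA change of -0.13 ± 0.08. RFC4 also had the lowest TE change of the 24 members that could be given one at 6 h (-1.42 ± 0.37, on 19 Ribo-Seq reads). The call at 2 h lay at the threshold and was lost with a pseudocount of 1 FPKM or with a trend of density on transcript length taken out. At 19 h the RFC4 density rested on 3 reads, a ratio to the control of 76.9 with a counting interval of 26.1 to 375.

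**Figure D4:**
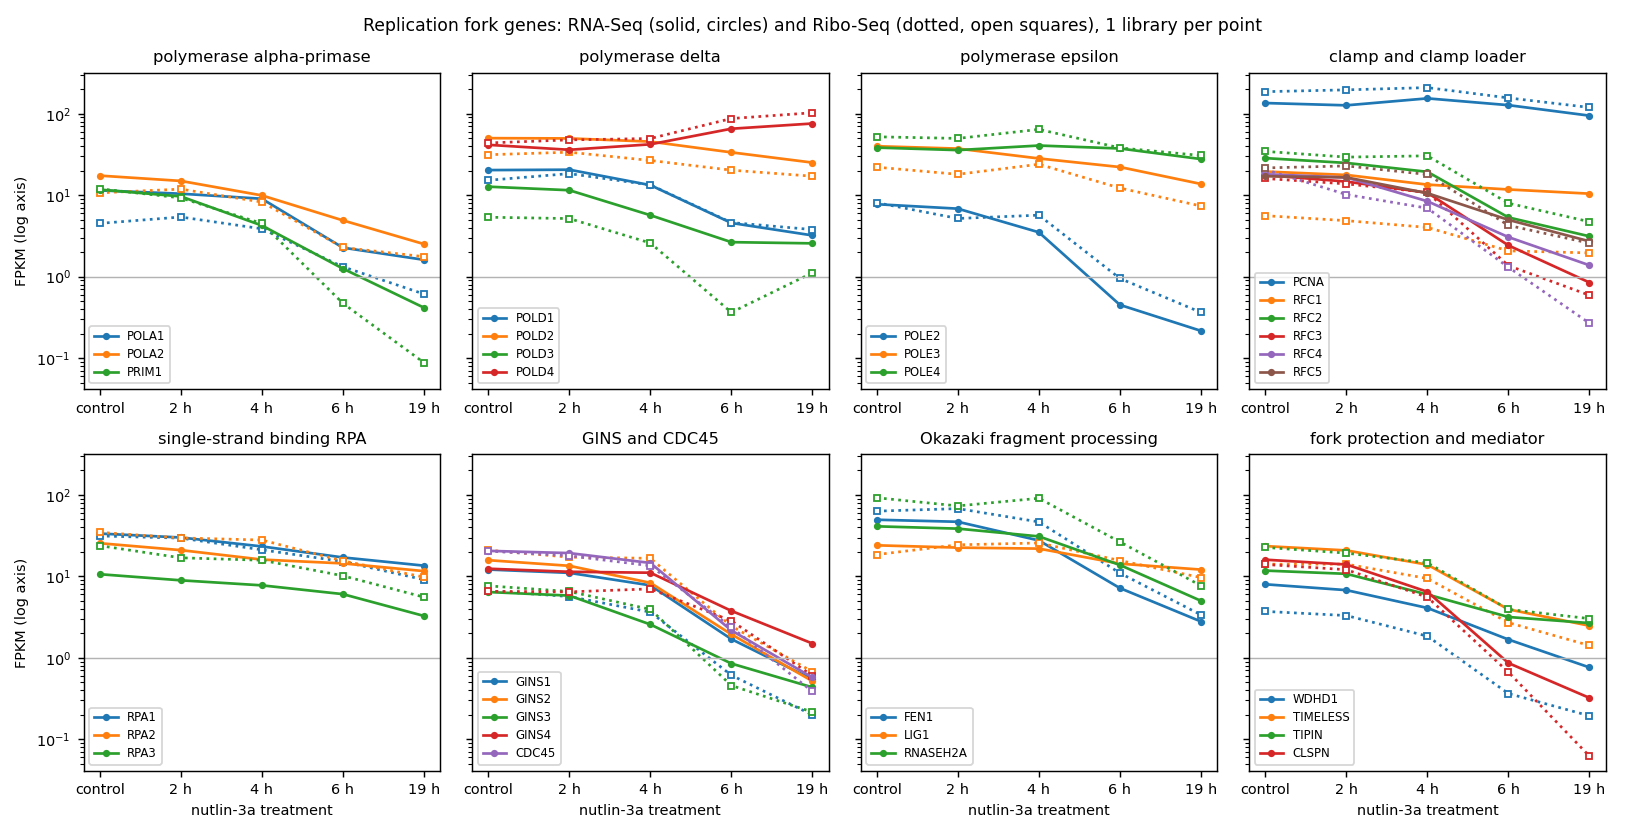
Level in FPKM (vertical log axis) of each measured fork gene in the 5 RNA-Seq libraries (solid lines, filled circles) and the 5 Ribo-Seq libraries (dotted lines, open squares), in 8 panels by group, with control and 2, 4, 6 and 19 h on the horizontal axis and a grey line at the floor of 1 FPKM. In the polymerase delta panel POLD4 ended at 75.9 FPKM in RNA and POLD1 at 3.21, from 41.5 and 20.3 in the control.

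The 3 subunits of RPA, which coats single-stranded DNA at forks and also at sites of repair, moved together and by less than most other members. RPA1 had RNA levels of 33.5, 30.0, 23.3, 17.1 and 13.5 FPKM and ended at -1.31 ± 0.04. RPA2 and RPA3 ended at -1.14 ± 0.09 and -1.70 ± 0.13. None of the 3 was past 2-fold in RNA at 6 h, when their changes ran from -0.97 to -0.81, and all 3 were at 19 h. In ribosome density all 3 were already past 2-fold at 6 h, with changes from -1.23 to -1.04. In density the changes at 19 h were -1.78 ± 0.09 for RPA1, -1.82 ± 0.16 for RPA2 and -2.10 ± 0.17 for RPA3, each lower than the RNA change of the same gene.

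The enzymes that finish Okazaki fragments were split between a flap nuclease that fell 17.8-fold and a ligase that ended just short of 2-fold lower. FEN1, which cuts the flap that displaced primers form, had RNA levels of 49.6, 46.8, 27.6, 7.18 and 2.79 FPKM and densities of 63.3, 67.9, 46.7, 11 and 3.37 FPKM. At 19 h FEN1 was 17.8-fold lower in RNA (15.2 to 20.9) and 18.8-fold lower in density (14.5 to 24.7), on 167 and 60 reads. LIG1, which seals the nick that is left and also acts in excision repair, had 24.1, 22.6, 21.9, 14.3 and 12.1 FPKM in RNA and 18.5, 24.4, 25.7, 15.6 and 9.67 FPKM in density. LIG1 density was higher at 2 and 4 h (0.40 ± 0.07 and 0.47 ± 0.07) while its RNA was slightly lower (-0.09 ± 0.05 and -0.13 ± 0.05). Its TE changes at those times were 0.49 and 0.61, beside medians of 0.05 and 0.18 over all tested genes. LIG1 was 1.99-fold lower in RNA at 19 h (1.84 to 2.15). FEN1 stood above LIG1 in RNA in the control, with a LIG1 to FEN1 ratio of 0.485, and below it at 19 h, with a ratio of 4.34.

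RNASEH2A, the catalytic subunit of the RNase that removes RNA from DNA strands, was a late gene. Its RNA was 41.2, 38.6, 31.0, 13.8 and 5.01 FPKM and its density 92.3, 73.3, 91, 26.5 and 7.69 FPKM. The RNASEH2A density at 4 h was within counting error of the control (-0.02 ± 0.06), and at 19 h it was 12-fold lower (9.40 to 15.6).

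All 4 fork protection and mediator genes were at least 2-fold lower at 6 and 19 h in both assays. CLSPN, the mediator of checkpoint signalling from stalled forks, had RNA levels of 16.0, 14.0, 6.47, 0.862 and 0.322 FPKM and densities of 14.0, 12.1, 5.56, 0.667 and 0.062 FPKM. On reads, CLSPN had the largest RNA decrease of the 31 genes at 19 h, 49.8-fold (35.6 to 71.7), and its density rested on 2 reads against 687, a ratio of 226 with a counting interval of 62.4 to 1871. TIMELESS and TIPIN, which form a complex that travels with the fork, had RNA changes at 19 h of -3.25 ± 0.09 and -2.14 ± 0.17, from 23.5 and 11.8 FPKM. WDHD1, which links polymerase alpha to the helicase and was not among the tested genes, went from 7.99 FPKM in RNA through 6.78, 4.10 and 1.68 to 0.762, a 10.5-fold decrease (8.68 to 12.8).

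The 6 members past 2-fold in RNA at 4 h were PRIM1, GINS3, CLSPN, POLD3, POLE2 and RFC4, with changes from -1.46 to -1.10. Of these, PRIM1, CLSPN, POLD3 and RFC4 were past 2-fold in density at 4 h too. The 6 genes belong to 6 of the 8 groups, and in no group were all measured members past 2-fold at 4 h. With the 2 h library as the baseline the count in density at 4 h went from 4 to 2, and with a cut-off set by the local spread of changes the count in RNA at 4 h went from 6 to 12, against 1.97% of all tested genes past that cut-off.

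All 24 members called lower in RNA at 19 h were also called lower in ribosome density, where 14.9% of all tested genes were. The share of all tested genes called in both assays is not given here. Across the 30 tested members the Pearson correlation between RNA change and density change came to 0.39, 0.84, 0.93 and 0.95 in time order. It is a description over genes that share their libraries and that are not independent replicates. The changes were floored, and a gene under the floor in both assays has changes set by its control levels alone. This affects the values at 6 and 19 h, when some members lay under the floor. Median TE changes were 0.04 and 0.20 at 2 and 4 h (n = 30), beside 0.05 and 0.18 over all tested genes. At 6 h the median was -0.07 over the 24 members with at least 1 FPKM in all 4 values, beside 0.0017 over all tested genes, and RFC4 alone was at least 2-fold lower in TE, where 2.55% of tested genes were. At 19 h it was -0.08 over 19 members, beside -0.07, and no member was past a 2-fold decrease in TE, where 4.17% of tested genes were. Medians near 0 do not describe each member. The TE change was beyond counting error in 16 of the 24 members at 6 h and in 9 of the 19 at 19 h. The share of all tested genes beyond counting error is not given here, so these counts mark no trait of the fork genes. Over all tested genes the SD of TE changes was 0.54 at 6 h and 0.53 at 19 h. The median counting SE of the 30 tested members was 0.18 and 0.23. At 19 h the TE change of the members ran from -0.77 ± 0.33 in TIPIN to 0.65 ± 0.18 in POLD1, with POLD4 at 0.36 ± 0.10.

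**Figure D5:**
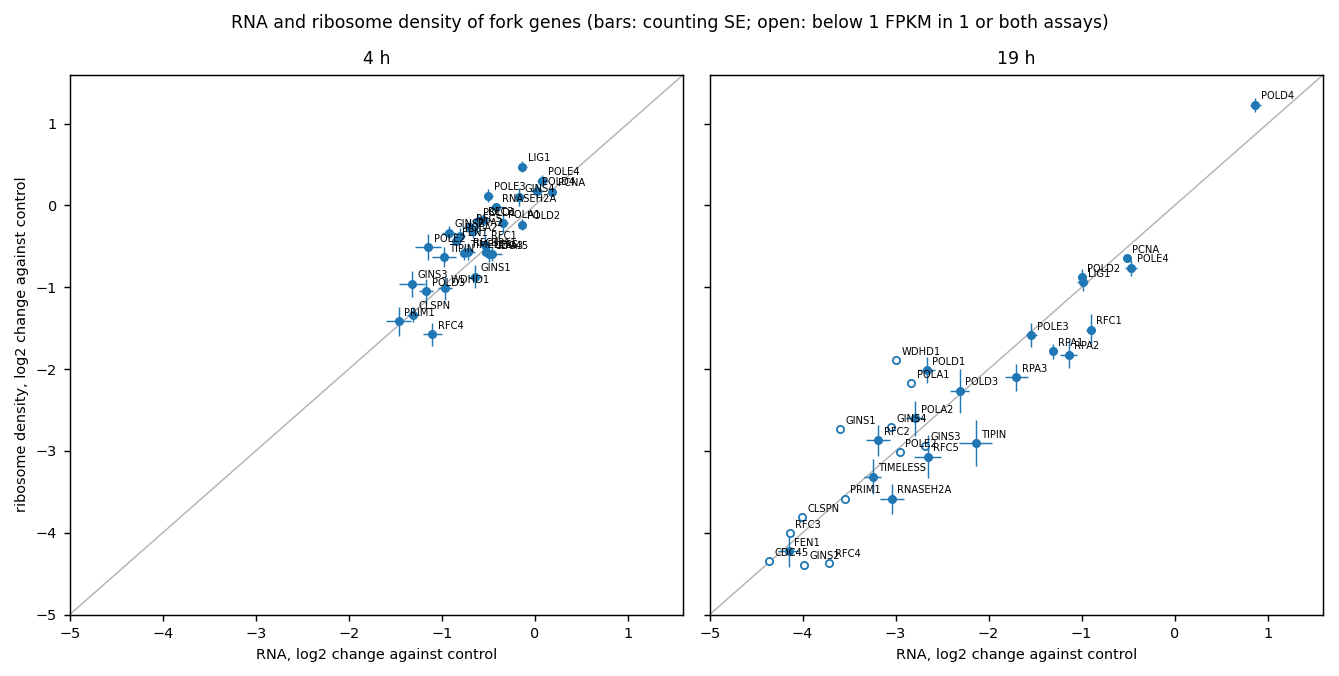
Log2 change in ribosome density (vertical axis) against log2 change in RNA (horizontal axis) of each fork gene at 4 h (left) and 19 h (right), with bars of 1 counting SE, open circles for genes below 1 FPKM in either assay at that time, and a grey line of equal change. At 4 h RFC4 lay farthest below the line (-1.10 in RNA and -1.57 in density) and POLE2 farthest above it (-1.14 in RNA and -0.51 in density). At 19 h POLD4 was alone at the upper right.

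In untreated cells the density to RNA ratio of the members had a median of 1.01, beside 0.830 over all tested genes. It was lowest in RFC1 (0.287) and highest in RNASEH2A (2.24), with RPA3 close to RNASEH2A. Across the 30 members this ratio was lower for longer transcripts (Spearman's rho -0.78 with log2 length, Pearson's r -0.75), in values that appear to be scaled to the whole transcript and not to its coding part. The RNA change at 19 h had a rho of -0.20 with length and 0.33 with the control level.

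Other genes of DNA replication were counted for comparison, from lists fixed by function. Licensing and helicase activation genes include the MCM ring and factors that load, activate or regulate it. Their 16 tested genes had a median RNA change of -3.31 at 19 h. Of the 16, 13 were at least 2-fold lower, against 7.1% of all tested genes. The lowest after flooring were CDC6 (-4.74) and MCM2 (-4.46), while unfloored FPKM gave larger decreases for MCM10 (86.4-fold, on 13 reads at 19 h), ORC1 (48.6-fold, on 15 reads) and CDT1 (23.6-fold) than for MCM2 (22.1-fold), and the highest were the origin recognition subunits ORC4 (-0.21) and ORC3 (-0.72). Among fork and chromatin assembly factors outside the 35 genes 7 of 12 were 2-fold lower, against the same 7.1%, with a median of -1.68. The histone chaperone ASF1B had -4.83 and CHAF1B had -3.97, whereas ASF1A had -0.08 and the topoisomerase TOP1 had -0.05.

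The 6 tested mitochondrial DNA replication genes, whose products copy a separate genome, had a median RNA change of -0.28 at 19 h. Of these genes 0 were 2-fold lower, close to the share of 7.1% over all tested genes. Their changes ran from -0.87 in TFAM and -0.78 in C20orf72 to -0.05 in TOP1MT and -0.01 in POLRMT. Of the 4 tested repair and translesion polymerase genes 1 was lower by 2-fold (MAD2L2, -1.45) and 1 was higher (POLH, 1.17, a known p53 target), with POLB at -0.01 and POLM at 0.36. Over all tested genes 7.1% were 2-fold lower and 2.49% were 2-fold higher. These lists were described by counts alone, and no test set them against the fork genes.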

How the data were processed

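RNA-Seq and Ribo-Seq were compared in 10 libraries, 1 per time and assay, grouped by their labels. As the methods describe, Bowtie was run by the authors against ribosomal RNAs and 1 protein-coding transcript per gene (Ensembl release 65), unique hits were kept, and the deposited values are FPKM with 3 decimals. The submitters' processing notes also name hg19. The floor of 1 FPKM that the methods describe had not been applied to the tables. The table read as RNA-Seq is named for both assays, and the reading was checked on 26 histone transcripts, most of which carry no poly(A) tail, with 20 under 1 FPKM in its control and 0 under 1 FPKM in that of the other table. The methods describe Ribo-Seq reads in coding sequence, but the column names say total, and for 88.4% of 7148 transcripts the length recovered from each table was the same. Reads outside coding sequence may be included.

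Total reads and transcript lengths were worked out from the FPKM spacing for 99.6% of the shared transcripts, a method tested on simulated data. They gave counting errors (the square root of the summed inverse read numbers over the natural log of 2) and exact Clopper-Pearson intervals of folds at 95%, which do not cover culture or library preparation, nor PCR copies. Values were floored at 1 FPKM before log2 ratios were taken, and a call is a change of at least 2-fold. The study describes a sequencing-run batch effect and states that conditions were set against a control of their own batch, while the labels give no run for a library, so no run entered the analysis. Genes described in full were those with the 5 lowest and 5 highest RNA changes at 19 h, PCNA, and the ends of any complex that spread by more than 2 (log2). The other members with levels or intervals in the text were chosen after their values were seen. The members and lists were chosen with earlier results of these data known. Python 3.11.15, numpy 2.4.6, pandas 2.3.3, scipy 1.17.1 and matplotlib 3.10.9 were used. Alternatives were a floor of 5 FPKM, a pseudocount of 1 FPKM, no filter, centring on the median, the 2 h library as baseline, a sliding cut-off of 1.75 local SDs and, chosen after seeing the data, removal of a trend on transcript length.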

Additional observations from a re-analysis of the deposited data

How the results depend on the processing

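With 1 library per group no replicate could be left out, and spread between cultures was not measured. Genes near or below 1 FPKM were limited by depth, since at 19 h members had as few as 10 RNA-Seq reads and 1 Ribo-Seq read. Of the summary values over the members under the alternatives, 114 stayed within their error or within 1.5 times the count and 13 moved. No change of 2-fold or more reversed, but 3 median TE changes near 0 changed sign, all within counting error: at 2 h to -0.02 and at 19 h to 0.05 when centred on all tested genes, and at 6 h to 0.0046 with a floor of 5 FPKM. A floor of 5 FPKM, above the treated level of many members, gave median RNA changes of -1.26 at 6 h and -1.31 at 19 h and median density changes of -1.13 and -1.49. A pseudocount of 1 FPKM gave median RNA changes of -1.77 at 6 h and -2.36 at 19 h, and no member 2-fold lower in density at 2 h (0 against 1), as did removal of the length trend (0). With the 2 h library as baseline the median RNA change at 4 h was -0.43, and 2 members were 2-fold lower in density at 4 h against 4. The sliding cut-off called 12 members lower in RNA at 4 h, and at 19 h 15 in RNA and 16 in density, against 1.97%, 4.5% and 3.55% of all tested genes in the same order. No paired analysis was possible because each group holds 1 library.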
